A study of Gasterosteus aculeatus with 227 samples.

Results

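Brain aromatase, the enzyme encoded by cyp19a1b (row LOC120808695), was followed in wild threespine stickleback, Gasterosteus aculeatus. It is 1 of 25994 genes counted and was taken by its row identifier. The fish were caught in the reproductive period in Baie de l'Isle Verte, Québec, and received no treatment. Sex was the only variable, and no ages are given in the sources used here. The 227 libraries, from 80 fish, comprised brain of 39 females and 39 males, gills of 36 females and 36 males, and liver of 38 females and 39 males. Libraries of 1 tissue and sex came from separate fish, and 69 fish gave all 3 tissues.

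Aromatase converts androgens into estrogens. Teleost fish carry a pair of aromatase genes, cyp19a1a, used mainly in the ovary, and cyp19a1b, used mainly in the brain. In the teleosts studied, cyp19a1b is made by radial glia, the progenitor cells lining the brain ventricles, above all in the forebrain, preoptic area and hypothalamus, and its transcription can rise with estrogen. The annotation of assembly fGasAcu3.hap1.1 puts LOC120808695 on the X chromosome, of which stickleback females carry a pair and males a single copy beside a Y. Since the build used for counting is not given in the sources used here, no coordinates are printed.

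The libraries were made from 3' ends of messenger RNA, and levels are counts per 1000000 counted reads (CPM). Totals ran from 8464756 to 17558655 counts in brain, apart from 1 female brain with 86631. A library with a total under 0.5 times its tissue's median is called shallow here, which applied to 1 brain, 0 gill and 12 liver libraries. The summed level of 17 neuronal genes was 5963 to 8861 CPM in brains of sufficient depth, 34.5 to 449 CPM in gills and 10.2 to 165 CPM in livers of sufficient depth. In 8 of the 12 shallow livers it was over 1000 CPM, far above the livers of sufficient depth, so their liver label is uncertain. These 8 had totals of only 8829 to 308567 counts, and the source of their neuronal reads was not tested.

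Both sexes had most cyp19a1b in brain, where females had the higher level. In 38 female brains of sufficient depth the level ran from 65.6 CPM, through a median of 182 CPM, to 387 CPM, on 856 to 5389 counts per library. In 39 male brains it ran from 19.0 CPM, through a median of 93.8 CPM, to 290 CPM, on 225 to 3680 counts. The ranges overlapped, with 36 of 38 females above the male median and 37 of 39 males below the female median. The mean was 196 CPM ± 67.9 (SD, n = 38) in females and 101 CPM ± 43.6 (SD, n = 39) in males. The shallow female brain had 46.2 CPM, on 4 counts.

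Gills held far less, and the sexes overlapped almost wholly. The level ran from 0.428 CPM, through a median of 1.29 CPM, to 4.28 CPM in 36 female gills. In 36 male gills it ran from 0.147 CPM, through 1.62 CPM, to 7.05 CPM. These values rest on few counts, a median of 17 per library in females and 18.5 in males, and 2 male libraries had 3 counts or fewer. Of the 36 females, 14 lay above the male median. The mean was 1.62 CPM ± 0.921 (SD, n = 36) in females and 1.93 CPM ± 1.28 (SD, n = 36) in males.

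Liver was at the edge of detection. In 33 female livers of sufficient depth the level ran from 0 to 5.56 CPM with a median of 0.234 CPM, and 8 libraries had no count. In 32 male livers it ran from 0 to 2.00 CPM with a median of 0.173 CPM, and 7 had no count. At the median depth of these livers, 3 counts are 0.303 CPM in females and 0.25 CPM in males, so both medians lie under that floor, which covers counting error only. Of the 12 shallow livers, 6 had over 50 CPM of cyp19a1b, on at most 18 counts, and all 6 had at least 2784 CPM of the neuronal genes. The liver of sufficient depth with the most cyp19a1b, female replicate 37, also had the highest neuronal sum of those livers, 165 CPM. The part of neuronal RNA in the liver values was not tested.

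**Figure D1:**
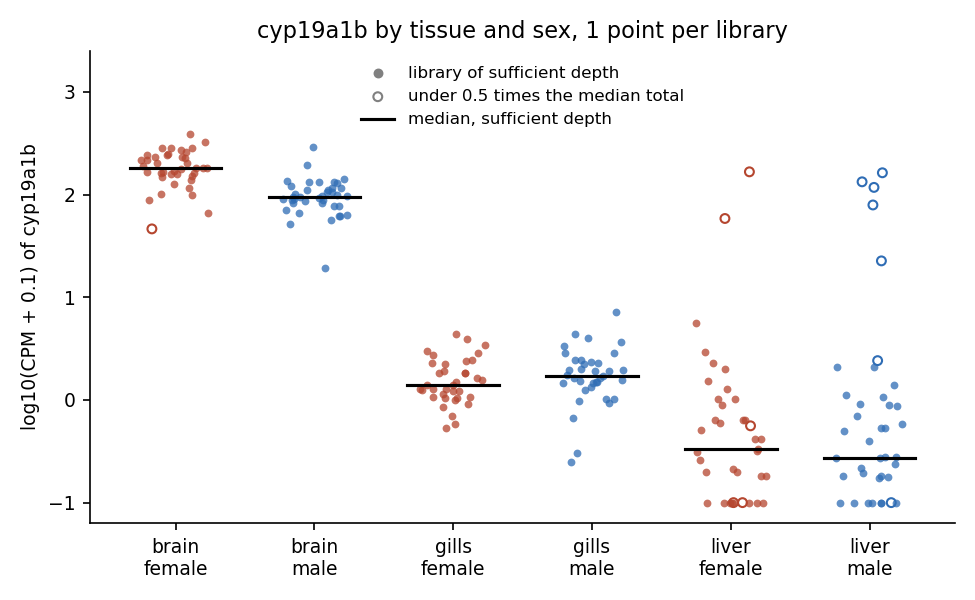
Level of cyp19a1b in each of the 227 libraries by tissue and sex, as log10(CPM + 0.1), with filled points for libraries of sufficient depth, open points for shallow libraries and bars for the medians of the filled points. Female brains centre on 182 CPM and male brains on 93.8 CPM, gills centre on 1.29 and 1.62 CPM, and 6 open liver points lie above 50 CPM.

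Within single fish, with both libraries of sufficient depth, brain exceeded gills in every fish. It did so in 34 of 34 females, with a median ratio of 144 (lowest 30.0, highest 791), and in 35 of 35 males, with a median ratio of 59.5 (lowest 10.5, highest 425). Brain exceeded liver in 31 of 31 females and in 31 of 31 males of that depth. With shallow libraries included it did so in 37 of 37 females and 35 of 38 males, and the livers of the other 3 males, replicates 6, 8 and 20, were shallow and rich in neuronal genes. In edgeR's quasi-likelihood test brain lay above gills by 6.92 log2 units in females (SE 0.26, adjusted p = 6.11e-69) and by 5.73 in males (SE 0.25, adjusted p = 7.83e-60). That fit, used for gills and liver too, treats the tissues of 1 fish as separate. The order of gills and liver was less firm. By CPM gills exceeded liver in 27 of 31 females and 28 of 29 males, but with TMM scaling across tissues the female difference, gills minus liver, was -0.57 (SE 0.25, edgeR adjusted p = 0.0358), while the male one was 0.54 (SE 0.26, edgeR adjusted p = 0.0502).

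The ovarian-type gene cyp19a1a (LOC120811580) was almost absent from brain. It had 67 counts over 38 female brains and 79 over 39 male brains, with none in 14 and 13 of them. Over the same brains cyp19a1b had 95539 and 47554 counts. Its counts were too low for any brain test.

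In the test of sex in brain, females exceeded males by 0.91 log2 units, a fold of 1.88 (edgeR quasi-likelihood test on 39 libraries of each sex, SE 0.13, adjusted p = 2.54e-08). For comparison, 7.24% of 18346 genes were called in brain, 4.62% with more in females and 2.62% with more in males. The fish carry tags below 100 or from 200 on, whose meaning is not given, and 2 females of a further series had no males beside them. Among tags below 100 (18 females, 19 males, 6.27% of genes called) the difference was 1.15 (SE 0.13, edgeR adjusted p = 1.91e-09). Among tags from 200 on (19 females, 20 males, 6.13% called) it was 0.72 (SE 0.23, edgeR adjusted p = 0.0479). That series held the shallow female brain and the male brain of highest cyp19a1b, and both were kept in its fit. A test of the difference between the tag series gave 0.43 log2 units (SE 0.27, p = 0.113, edgeR adjusted p = 0.786).

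The brain difference was of the size common on the X. The 698 other X genes tested had a median female-to-male difference of 0.96 log2 units, the middle 50% lay between 0.83 and 1.28, and 650 (93.1%) were called higher in females. Of these genes 43.1% lay below cyp19a1b. All 10 of its nearest X genes in the annotation, 5 to each side, were called higher in females, by 0.72 to 1.14. The autosomal median was -0.04.

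In gills cyp19a1b stood low among X genes. Its difference was -0.25 log2 units (edgeR, SE 0.19, p = 0.203, adjusted p = 0.472), with a 95% interval from -0.64 to 0.14. In gills 13.5% of 17654 genes were called, 6.02% with more in females and 7.45% with more in males. The 658 other X genes had a median of 1.00, 573 (87.1%) were called higher in females, and 12 (1.82%) lay below cyp19a1b. Of the 10 neighbours 8 were called higher in females. The exceptions were gnb5a, a G protein subunit gene, at -0.12 (edgeR adjusted p = 0.789) and LOC120809205 at 0.63 (edgeR adjusted p = 0.112). By tag series the gill difference of cyp19a1b was 0.04 below 100 (edgeR adjusted p = 0.972, 6.71% of genes called) and -0.47 from 200 on (edgeR adjusted p = 0.320, 8.55% called).

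**Figure D2:**
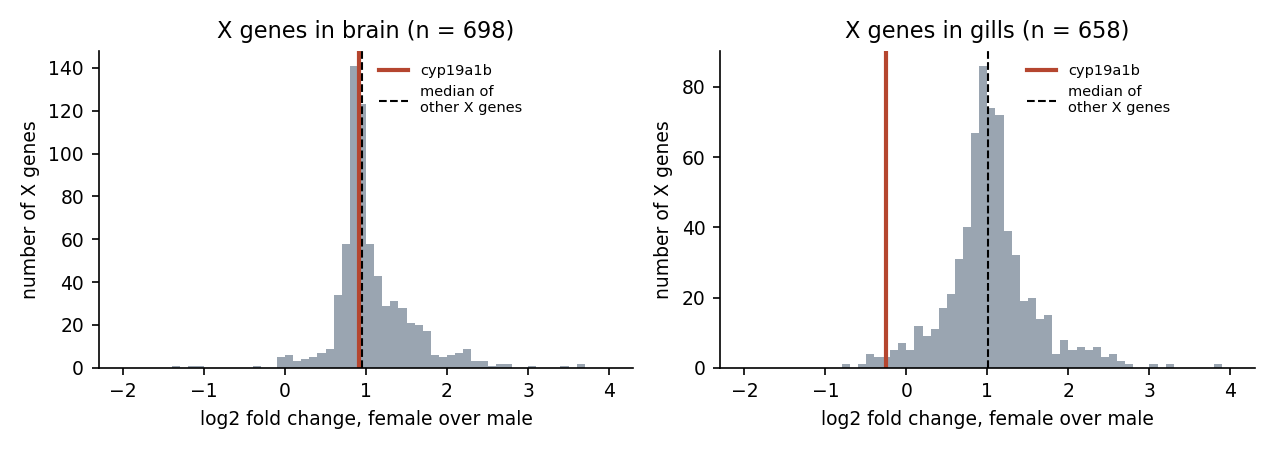
Number of X genes by log2 fold change, female over male, in brain (698 genes) and gills (658 genes), with cyp19a1b as a solid line and the median of the others dashed. In brain the lines lie at 0.91 and 0.96, in gills at -0.25 and 1.00, and 4 brain genes and 3 gill genes fall outside the axis, which runs from -2 to 4.

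Whether the sex difference changed with tissue was tested directly. In the fit of all 227 libraries the gill difference minus the brain difference was -1.16 log2 units (SE 0.36, p = 0.00152, edgeR adjusted p = 0.141), rank 215 of 19925 genes, of which 0.527% were called. Without the shallow libraries it was -1.18 (edgeR adjusted p = 0.0185). Fitted on brain and gill libraries alone, a choice made after seeing the data, it was -1.17 (SE 0.23, edgeR adjusted p = 0.000411), where 3.11% of 19733 genes were called. These fits treat brain and gills of 1 fish as separate. With the fish as a block in limma's voom fit, the value was -1.11 over all libraries (adjusted p = 0.0729) and, added later still, -1.13 on brain and gill libraries alone (adjusted p = 0.0122, 5.69% of genes called). The median over 757 X genes was -0.01 in the first fit, and 13 of them were called.

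Within fish, also a choice made after seeing the data, brain minus gill log2 CPM was 6.87 ± 0.885 (SD, n = 34) in females and 5.73 ± 1.03 (SD, n = 35) in males. The sexes differed by 1.14 (two-sided permutation test, 100000 resamples, p = 2e-05), and 30 of 34 females lay above the male median. Brain and gill levels of the same fish were not detectably related. Spearman's rho was 0.05 in 34 females (r = -0.04) and 0.16 in 35 males (r = 0.13), with permutation p-values, adjusted over both sexes, of 0.770 and 0.722 for rho and 0.839 for each r. Without the 2 fish farthest in brain level, r was 0.16 in females and 0.12 in males.

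**Figure D3:**
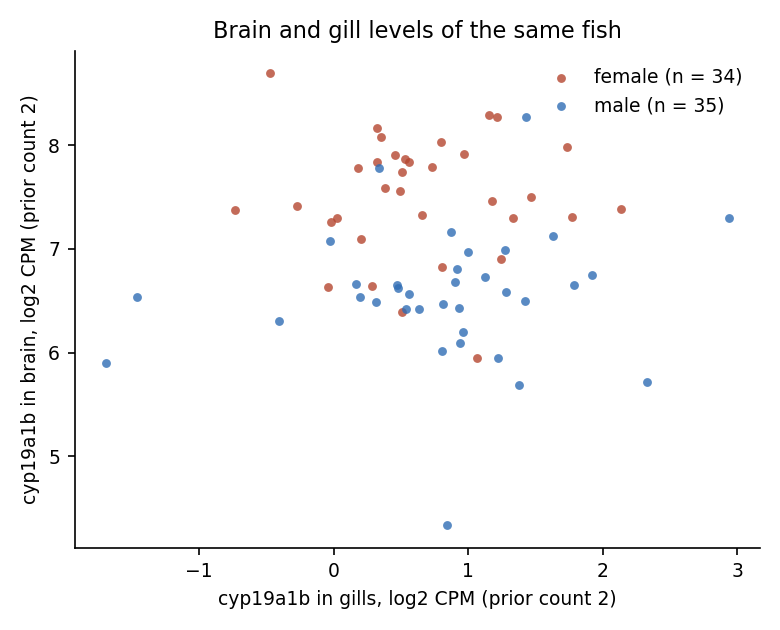
Brain against gill level of cyp19a1b in the same fish, in log2 CPM with a prior count of 2, for 34 females and 35 males. Females lie higher than males on the brain axis, and the sexes overlap on the gill axis.

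In liver the gene failed the filter on low counts and so had no planned test. The log2 ratio of the mean CPM, female over male, was -1.06 over all livers and 0.66 without the shallow ones, so the shallow libraries set its sign. In liver 32.4% of 13176 genes were called, 17.4% with more in females and 15% with more in males. The fit of all libraries, shallow livers included, gave a liver difference minus brain difference of -0.15 log2 units (SE 0.44, edgeR adjusted p = 0.863). In that fit 24.6% of genes were called. Over 6 alternatives the value ran from -0.66 to -0.07, none past the threshold. With so few liver counts it does not show that liver and brain had the same sex difference.

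A single male stood apart in brain. Male brain replicate 12 had 290 CPM, and the next male had 194 CPM. Over 482 Y genes that were silent in all female brains, its share of counts was 14.2% of the male median, and the next lowest male was at 67.4%. Its gill level, 2.76 CPM, ranked 6 of 36 males, and its liver library was shallow. Without this fish the male mean was 96.5 CPM ± 31.1 (SD, n = 38), 17 of 38 females in place of 2 lay above all males, and the sex difference was 0.99 log2 units.

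Brains differed in their levels of marker genes of brain regions. Female replicate 10 had 1.44 CPM of nkx2.1, a transcription factor gene of the hypothalamus and ventral forebrain, against 28.0 CPM or more in the other females. Male replicate 3 had 1.69 CPM against 19.2 CPM or more in the other males. The sum of 29 forebrain and hypothalamus genes set them less apart. It was 428 CPM in this female, with 445 CPM or more in the other females. In this male it was 409 CPM, with 387 CPM as the lowest of the other males. Both brains also had the lowest level of dlx2a, a ventral forebrain factor gene, in their sex. Both had the highest sum of 26 midbrain, cerebellum and hindbrain genes in their sex, 1979 CPM and 2426 CPM. Their cyp19a1b levels were 88.1 CPM, second lowest of 38 females, and 19.0 CPM, lowest of 39 males. Without both, the sex difference was 0.90 log2 units (edgeR adjusted p = 4.75e-09).

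Pituitary RNA was high in some brains and low in others. Brains of at least 1000 CPM are called high, and are the brains with pituitary RNA of later passages. The sum of 12 pituitary genes was 64.8 to 271 CPM in 9 females and 3563 to 15493 CPM in the other 29, and 94.1 to 239 CPM in 7 males and 1630 to 14725 CPM in the other 32. Median cyp19a1b in the low and high brains was 161 and 203 CPM in females, and 83.1 and 95.1 CPM in males, with overlapping ranges. Among the high brains alone the sex difference was 0.92 log2 units (edgeR adjusted p = 1.28e-07). In bulk tissue, fewer cells of a type and less RNA per cell cannot be told apart.

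The brain genes that follow cyp19a1b were sought within each sex, to keep the difference between the sexes out of the relation. The male set kept the male of low Y counts, so this separation is less sure in males. For every gene edgeR's quasi-likelihood test gave the slope of its log2 level on that of cyp19a1b, where 1 means equal proportional change. In 38 females 3.39% of 16789 genes were called, 386 rising with it (2.3%) and 183 falling (1.09%). In 39 males 1.33% of 16731 genes were called, 166 rising (0.992%) and 57 falling (0.341%). Of 16357 genes tested in both sexes, 57 rose in both (0.348%), 3 fell in both (0.0183%) and 0 were called in opposite directions. The 57 are 14.8% of the genes rising in females and 34.8% of those rising in males.

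The counts rested heavily on single libraries, on the scaling and on the terms in the fit. Without the male of low Y counts 20 genes in place of 223 were called in males, 19 of them among the 223, and 8 rose in both sexes. Without the brain of each sex lowest in nkx2.1 there were 967 calls in females and 1276 in males, and 295 genes rose in both, 52 of the 57 among them. Without the 2 libraries farthest in cyp19a1b, female replicates 22 and 30 and male replicates 3 and 12, there were 265 and 787 calls. With library totals in place of TMM there were 148 and 7 calls, and 1 gene rose in both. With tag series as a term there were 107 and 224, and 19 genes rose in both. With the first 2 principal components as terms there were 153 and 5, and 0 genes rose in both. The second component ran with cyp19a1b, with a rho of 0.65 in females (r = 0.43) and 0.49 in males (r = 0.50), and permutation p-values adjusted over 6 relations of 6e-05 and 0.00567 for rho and 0.0275 and 0.0151 for r.

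Directions were shared more widely than calls. Of 565 female-called genes tested in both sexes, 544 (96.3%) had the same sign in males, and of 221 male-called genes 213 (96.4%) had the same sign in females. Over all 16357 genes tested in both, the slopes of females and males had a rho of 0.59 with each other. Sharing of direction was thus not limited to called genes. The same-sign share over all genes is not given here to set beside 96.3% and 96.4%. Genes vary together in these brains, so counts of agreeing genes are not counts of separate observations. The 50 genes of highest rho in females had a median rho of 0.46 in males, all 50 above 0, as were 48.4% of all genes. The 50 highest in males had a median rho of 0.55 in females, all 50 above 0, as were 48.9% of all genes. A slope that differs between the sexes was called for 0 of 18391 genes (0%) by edgeR, with 632 at an unadjusted p under 0.05. All genes share 1 predictor and vary together, so the 632 do not show that the slopes of the sexes are equal.

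**Figure D4:**
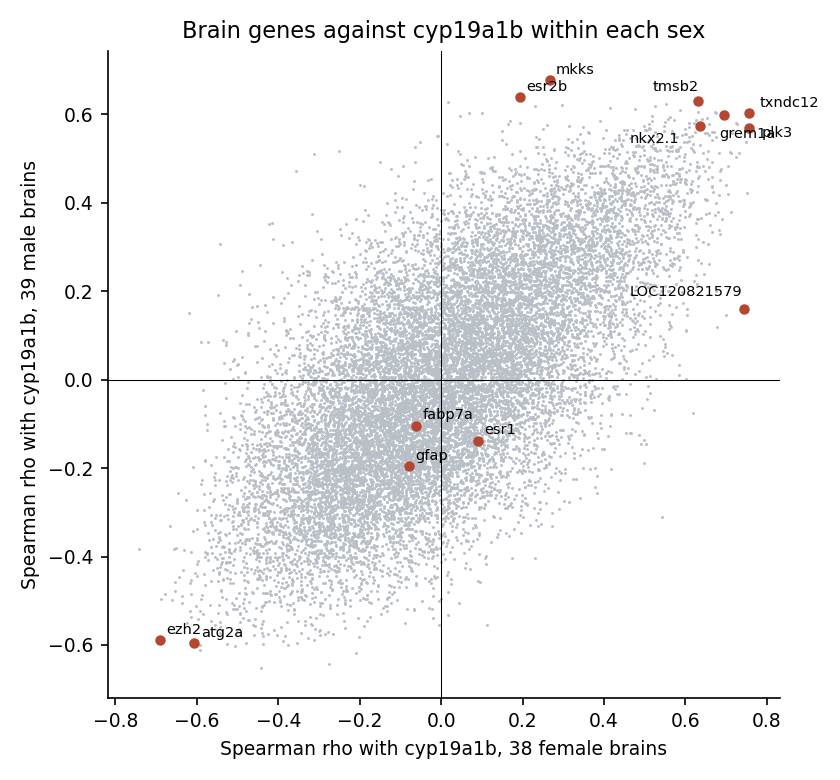
Spearman rho of 16357 brain genes with cyp19a1b over 38 female brains (horizontal) and 39 male brains (vertical), with named genes in red. The cloud is stretched along the diagonal, with tmsb2, txndc12 and grem1a at upper right, ezh2 and atg2a at lower left, and gfap, fabp7a and esr1 near the centre.

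The 10 genes that followed it most closely in both sexes, ranked by the smaller rho, were tmsb2, arl8, trnS-UGA, txndc12, afp4, LOC120822733, grem1a (LOC120807706), eif4e2rs1, LOC120832009 and actb2. Their rho was 0.60 to 0.76 in females and 0.59 to 0.67 in males, or 0.56 to 0.64 in males without the male of low Y counts. Of the 10, 8 passed the slope test in both sexes, and none was called for sex in brain. The 10 were picked by rho over these same brains, so their slope tests describe them and are no separate support. In males without the male of low Y counts, grem1a was the only one of the 10 still called.

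The gene tmsb2, for the actin-binding peptide thymosin beta, ran from 594 CPM, through a median of 1477 CPM, to 3737 CPM in females and from 444 CPM, through a median of 1760 CPM, to 4075 CPM in males. By edgeR its slope was 0.70 in females (SE 0.16, adjusted p = 0.0162) and 0.62 in males (SE 0.15, adjusted p = 0.036). The gene txndc12, for a thioredoxin-like protein of the endoplasmic reticulum, ran from 22.7 CPM, through a median of 54.9 CPM, to 117 CPM in females and from 24.6 CPM, through a median of 57.7 CPM, to 126 CPM in males. The sexes overlapped in both genes. The txndc12 slope by edgeR was 0.71 in females (SE 0.13, adjusted p = 0.00327) and 0.52 in males (SE 0.13, adjusted p = 0.0396). The gene grem1a, for the secreted BMP antagonist gremlin, ran from 36 CPM, through a median of 89.1 CPM, to 207 CPM in females and from 28.2 CPM, through a median of 88 CPM, to 265 CPM in males, again with overlap. Its edgeR slope was 0.71 in females (SE 0.12, adjusted p = 0.0026) and 0.67 in males (SE 0.14, adjusted p = 0.0149). The beta-actin gene actb2 missed the threshold in males, with an edgeR slope of 0.62 in females (SE 0.16, adjusted p = 0.0274) and 0.61 in males (SE 0.17, adjusted p = 0.0506).

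The 5 genes of most negative rho in both sexes were sde2, atg2a, si:dkey-183j2.10, pa2g4b and ezh2 (LOC120811509). They too were picked over the same brains that their slope tests use. Only atg2a, an autophagy gene, passed in both sexes, with an edgeR slope of -0.43 in females (SE 0.09, adjusted p = 0.0102) and -0.41 in males (SE 0.10, adjusted p = 0.0289), and its male call was lost without the male of low Y counts (edgeR adjusted p = 0.0749). The gene ezh2, for the methyltransferase of Polycomb repression, had a rho of -0.69 in females and -0.59 in males, and its edgeR slope was -0.84 in females (SE 0.15, adjusted p = 0.00327) and -0.82 in males (SE 0.23, adjusted p = 0.055).

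The leading genes of a single sex did not all lead in the other. In females these were txndc12, plk3, zgc:113278, LOC120826152 and LOC120821579. The polo-like kinase gene plk3 had a rho of 0.76 in females and 0.57 in males, but LOC120821579 had 0.74 and 0.16. In males the leaders were mkks, LOC120822733, ghrhra, esr2b and tmsb2. The chaperonin-like gene mkks had 0.68 in males and 0.27 in females, and ghrhra, a receptor gene for growth hormone releasing hormone, had 0.66 and 0.53. The slope difference between the sexes was called for none of these genes. Its unadjusted edgeR p was 0.00677 for zgc:113278, 0.00995 for LOC120821579 and 0.0282 for LOC120826152. For mkks it was 0.185, and it was higher for the rest of these genes. Because these genes were picked for a high rho in 1 sex, a lower rho in the other was favoured by the choice.

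Estrogen receptors bind the product of aromatase, and esr2b, an estrogen receptor beta gene, was among the male leaders. It ran from 3.2 CPM, through a median of 6.79 CPM, to 15.7 CPM in females and from 4.16 CPM, through a median of 9.15 CPM, to 17.7 CPM in males. The ranges overlapped, and males were higher by 0.49 log2 units (SE 0.13, adjusted p = 0.00342) in edgeR's test, opposite to cyp19a1b. Its rho with cyp19a1b was 0.64 in males and 0.19 in females, and its edgeR slope was 0.25 in females (SE 0.15, adjusted p = 0.365) and 0.48 in males (SE 0.11, adjusted p = 0.0289). The difference of the slopes, -0.24 (SE 0.18, unadjusted edgeR p = 0.199), was not called. Without the male of low Y counts the male slope was 0.54 (edgeR adjusted p = 0.0547).

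Of other sex steroid receptor genes, esr1, esr2a and ar did not pass. The progestin receptor gene pgr was not among the genes tested in both sexes. The estrogen receptor genes esr1 and esr2a had a rho of 0.09 and -0.03 in females and -0.14 and 0.30 in males. The androgen receptor gene ar (LOC100174876) had -0.16 and 0.12. Of the list of steroid receptors and cofactors, 1 of 27 genes tested rose in females (3.7%, beside 2.3% of all genes) and 3 of 26 in males (11.5%, beside 0.992%). Of the list of steroid synthesis and metabolism 0 of 17 were called in each sex, beside 3.39% of all genes in females and 1.33% in males. The nuclear receptor gene nr2f1a rose in both, with an edgeR slope of 0.27 in females (SE 0.07, adjusted p = 0.0288) and 0.29 in males (SE 0.07, adjusted p = 0.0308). The gene nr5a1a, for a regulator of steroid enzyme genes, had an edgeR slope of 0.30 in females (SE 0.15, adjusted p = 0.252) and 0.61 in males (SE 0.15, adjusted p = 0.0366). Without the male of low Y counts neither passed in males (edgeR adjusted p = 0.0749 for nr2f1a and 0.0611 for nr5a1a).

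For sex itself, edgeR called 3 of 19 steroid synthesis genes and 4 of 28 receptor and cofactor genes in brain, 15.8% and 14.3%, beside 7.24% of all genes. The gene srd5a1, for the enzyme that reduces testosterone to dihydrotestosterone, was higher in males by 0.90 log2 units (SE 0.21, adjusted p = 0.00078), with medians of 1.35 CPM in females and 2.25 CPM in males. The progestin receptor gene pgr was higher in females by 0.81 log2 units (SE 0.18, adjusted p = 0.000401), with medians of 2.41 and 1.35 CPM. The gene hsd11b2, for a glucocorticoid-inactivating dehydrogenase, was higher in females by 0.50 log2 units (SE 0.15, adjusted p = 0.0152). The genes hsd17b12a, fkbp4 and nr2f2, all on the X, were higher in females by 0.89, 1.65 and 1.17, and esr2b was the remaining call.

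Radial glia make this enzyme in other teleosts. Of 22 radial glial and astroglial genes tested, glula, her9 and sox2 rose in females (13.6%, beside 2.3% of all genes) and her6 rose in males (4.55%, beside 0.992%). The call of her6 was lost without the male of low Y counts (edgeR adjusted p = 0.0756). The glial filament gene gfap (LOC120827734) had an edgeR slope of -0.15 in females (SE 0.28, adjusted p = 0.817) and -0.40 in males (SE 0.29, adjusted p = 0.459). The brain fatty acid binding protein gene fabp7a had -0.11 in females (SE 0.12, adjusted p = 0.634) and -0.05 in males (SE 0.10, adjusted p = 0.824). The glutamine synthetase gene glula had an edgeR slope of 0.41 in females (SE 0.11, adjusted p = 0.0349) and 0.28 in males (SE 0.08, adjusted p = 0.0668). The list's median slope was -0.04 in females and 0.01 in males, beside -0.01 and -0.0041 over all genes.

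Among 29 forebrain and hypothalamus factors, nkx2.1 was the only call of 19 tested in females (5.26%, beside 3.39% of all genes) and 20 in males (5%, beside 1.33%). Its edgeR slope was 0.71 in females (SE 0.18, adjusted p = 0.028) and 0.97 in males (SE 0.20, adjusted p = 0.0123), with a rho of 0.64 and 0.57. Without the brain of each sex lowest in it the rho was 0.60 and 0.54. Both slopes include those brains, and with them r was 0.57 in females and 0.72 in males. Among midbrain, cerebellum and hindbrain factors, 18 tested in each sex, the single call was hoxb2a, a hindbrain patterning gene. That is 5.56% in females, beside 3.39% of all genes, and 0% in males, beside 1.33%. The gene hoxb2a fell in females with a slope of -0.96 (SE 0.28, edgeR adjusted p = 0.0474). The summed level of that list had a rho of -0.50 with cyp19a1b in 38 females (r = -0.54) and -0.18 in 39 males (r = -0.29). Permutation p-values adjusted over 10 such relations were 0.0146 and 0.347 for rho, and 0.005 and 0.135 for r. Without the 2 females farthest in cyp19a1b, rho was -0.45 and r was -0.47. The forebrain and hypothalamus sum had a rho of 0.30 in females and 0.28 in males (permutation adjusted p = 0.202 for each). Without X genes, the neuron sum had 0.05 and -0.23 (permutation adjusted p = 0.763 and 0.275). The radial glial and astroglial sum, also without X genes, had -0.05 and 0.20 (permutation adjusted p = 0.763 and 0.314). The part of brain region in the genes that follow cyp19a1b was not tested.

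**Figure D5:**
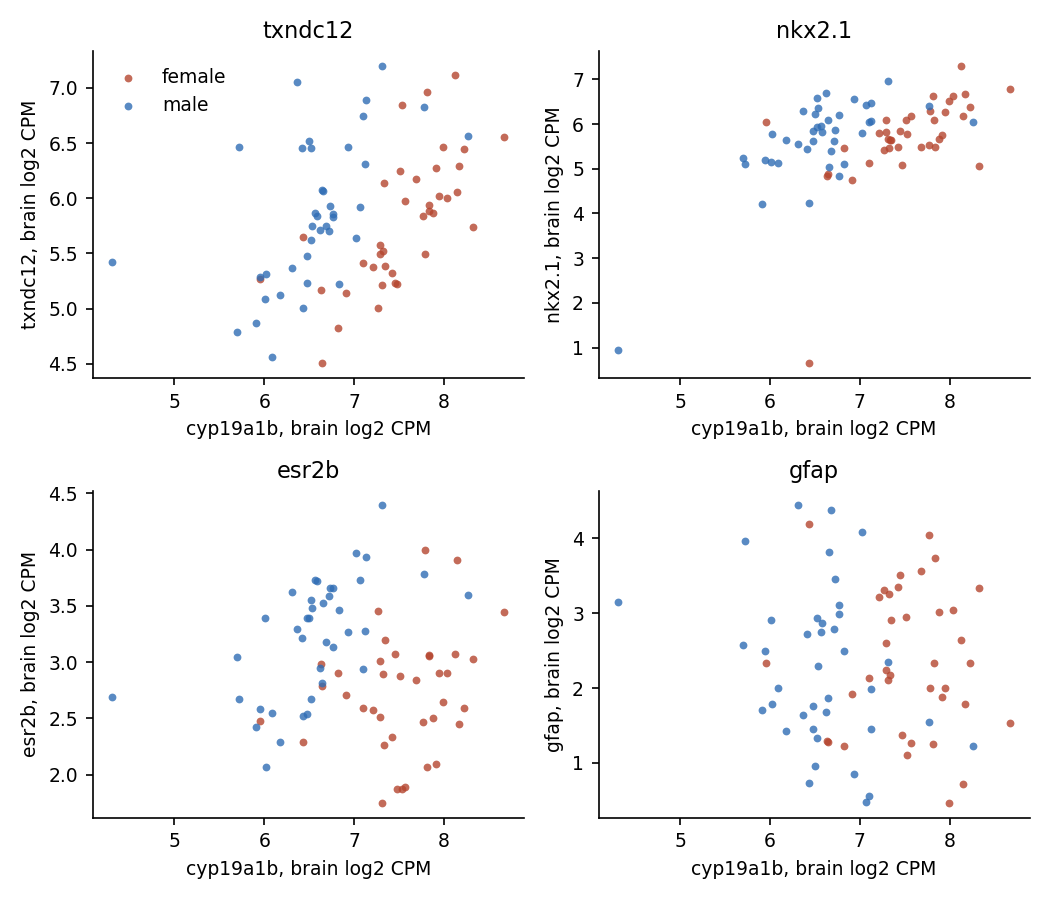
Brain log2 CPM of txndc12, nkx2.1, esr2b and gfap against that of cyp19a1b, 1 point per brain, for 38 females and 39 males. The rho is 0.76 and 0.60 for txndc12, 0.64 and 0.57 for nkx2.1, 0.19 and 0.64 for esr2b and -0.08 and -0.20 for gfap, females first, and 1 brain of each sex lies far down the nkx2.1 axis.

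Hypothalamic peptide genes gave 1 call in each sex among 26 tested, 3.85%, beside 3.39% of all genes in females and 1.33% in males. The neurokinin B precursor gene tac3a had an edgeR slope of 0.30 in females (SE 0.08, adjusted p = 0.0349) and 0.27 in males (SE 0.09, adjusted p = 0.0986). The gene agrp (LOC120809389), for an appetite peptide, had an edgeR slope of 0.37 in females (SE 0.25, adjusted p = 0.423) and 1.33 in males (SE 0.23, adjusted p = 0.00371), and it stayed called without the male of low Y counts (edgeR adjusted p = 0.0100). The list's median slope was 0.22 in females and 0.17 in males. Pituitary genes had a median slope of 0.79 in females and 0.68 in males. Of 10 tested, 0 were called in each sex, beside 3.39% of all genes in females and 1.33% in males. In brains high in pituitary RNA the sum of these genes had a rho with cyp19a1b of 0.30 in 29 females (r = 0.22) and 0.37 in 32 males (r = 0.36). Permutation p-values adjusted over the 10 relations were 0.221 and 0.180 for rho and 0.371 and 0.135 for r.

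Lists of other brain cells gave few calls. In the neuron list slc17a6a, a vesicular glutamate transporter gene on the X, was the only call of 17 in each sex (5.88%, beside 3.39% of all genes in females and 1.33% in males), with an edgeR slope of 0.36 in females (SE 0.10, adjusted p = 0.0328) and 0.40 in males (SE 0.09, adjusted p = 0.0289). Without the male of low Y counts its male call was lost (edgeR adjusted p = 0.112). Of 9 oligodendrocyte genes in each sex, and of 12 microglia and blood genes in females and 11 in males, 0 were called by edgeR. All genes gave 3.39% in females and 1.33% in males, shares at which lists this short can give 0 calls. The microglia and blood list had a median slope of -0.20 in females and -0.07 in males, and the vessel and meninges list -0.16 and -0.12, beside -0.01 and -0.0041 over all genes. Of 12 vessel and meninges genes, 1 was called in females (8.33%, beside 3.39% of all genes) and 0 in males (beside 1.33%). It was cldn5a, a tight junction gene of the blood-brain barrier, with an edgeR slope of -0.40 in females (SE 0.11, adjusted p = 0.0419) and -0.12 in males (SE 0.11, adjusted p = 0.589).

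Vitellogenin, the yolk precursor that estrogen induces in fish liver, was compared with brain cyp19a1b of the same fish. The annotation used names 1 vitellogenin gene, vtg3, whose liver median was 13.9 log2 CPM in females and 4.05 log2 CPM in males. The ranges overlapped, from 4.17 to 14.8 log2 CPM in females and from 2.49 to 14.5 log2 CPM in males. The rho was 0.31 in 31 females (r = 0.24) and -0.0036 in 31 males (r = 0.04), with permutation p-values, adjusted over both sexes, of 0.194 and 0.985 for rho and 0.369 and 0.788 for r. Without the 2 fish farthest in brain cyp19a1b it was 0.20 in females (r = 0.01) and -0.03 in males (r = -0.01). For tags below 100 and from 200 on, in that order, it was 0.17 and 0.36 in females and -0.24 and 0.28 in males. The female rho was 0.01 with library totals in place of TMM and 0.10 with shallow livers included (37 fish). No relation was detectable with these fish.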

How the data were processed

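The authors deposited raw counts per gene, 1 table per tissue. Per the labels' protocols, RNA was extracted with an RNeasy Mini kit and libraries were made with a dual-indexed QuantSeq FWD kit. The submitters' processing notes name fastp, STAR and HTSeq, and versions, build, annotation and strand setting are not given in the sources used here. From the counts, sex, tissue and slope tests were run with edgeR 4.0.16 in R 4.3.3 (TMM scaling, filterByExpr, quasi-likelihood F test). The filter was grouped by sex in the sex and slope-difference tests, and by tissue and sex in tests across tissues. Slope tests within a sex used it without groups. Benjamini-Hochberg adjustment ran over all genes tested, with a threshold of 0.05 and a prior count of 2 for log2 CPM. DESeq2 1.42.0 and limma 3.58.1 gave alternatives. Correlations used scipy 1.17.1 and two-sided permutation of fish. Slope fits left out the shallow brain. The fits were tested on simulated brain counts with each gene drawn independently. A sex difference of 1 log2 unit was called in the right direction for 97% of 200 changed genes. A female slope of size 0.6 was so called for 63.6% of 198 changed genes. With no genes that vary together, the simulation does not bear on the shifts in counts of called genes. Names came from the RefSeq table of assembly fGasAcu3.hap1.1: of 25994 rows 9078 matched by gene number, 11981 by symbol, 2 by synonym and 4933 not at all. Named are the 10 genes of highest and 5 of lowest rho in both sexes, the 5 highest in each sex, list members called in both sexes, steroid genes called in any brain test, and the fixed genes cyp19a1a, esr1, esr2a, esr2b, ar, gfap and fabp7a. The genes glula, her9, sox2, her6, tac3a, agrp, hoxb2a and cldn5a were named because few members of their list were called, after their values were seen. The gene and the lists were chosen with earlier results of these data known.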

Additional observations from a re-analysis of the deposited data

Results flagged for a closer look

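The sex difference of cyp19a1b differed between gills and brain when brain and gill libraries were fitted alone, by -1.17 log2 units (SE 0.23, edgeR adjusted p = 0.000411). The brain difference was 0.91 and the gill difference -0.25, both female over male. In the fit of all 227 libraries the same quantity was -1.16 (SE 0.36) with an edgeR adjusted p of 0.141. With the fish as a block in limma's voom fit it was -1.11 over all libraries (adjusted p = 0.0729) and -1.13 on brain and gill libraries alone (adjusted p = 0.0122).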

How the results depend on the processing

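The brain sex difference of cyp19a1b stayed between 0.90 and 0.99 log2 units and past the threshold under 13 alternatives, and the gill difference stayed between -0.27 and -0.15 and short of it under 11. In liver the ratio of means, -1.06, became 0.66 without shallow libraries, and edgeR without a filter gave 0.42, or 0.94 without shallow libraries as well. The difference between gills and brain passed only without shallow libraries (-1.18, edgeR adjusted p = 0.0185) or on brain and gill libraries alone (-1.17, -1.18 without the shallow brain, or -1.13 with a fish block), and its adjusted p ran from 0.000209 to 0.378 over 9 alternatives. Genes called as following cyp19a1b, 569 in females and 223 in males, became 148 and 7 with library totals, 265 and 787 without the 2 farthest libraries, 153 and 5 with 2 principal components, 1592 and 925 with the first component, 967 and 1276 without the brain lowest in nkx2.1, and 1238 and 669 in brains with pituitary RNA. In females they became 373 with log2 total and 107 with tag series as a term, and in males 20 without the male of low Y counts. Slopes that differ between the sexes became 6 with all libraries. The female rho with vitellogenin ran from 0.01 to 0.36 over 7 alternatives, none past the threshold. The male rho turned to 0.20 with shallow livers and 0.28 for tags from 200 on, and Pearson's r was 0.0427. Of the single-gene results 12 turned sign, none past the threshold: gfap by sex (0.0424 with the replicate block, 0.0868 in brains with pituitary RNA), the female slopes of esr2a (0.0023, 0.0811, 0.00954 and 0.0499 with all libraries, without the farthest 2, with the first component and in brains with pituitary RNA) and gfap (0.0721, 0.17 and 0.103 with 2 components, without the brain lowest in nkx2.1 and in brains with pituitary RNA), and the male slopes of esr1 (0.0539 with 2 components) and ar (-0.0337 without the brain lowest in nkx2.1, -0.0439 in brains with pituitary RNA). Of the others 782 kept direction and side, 102 lost a call and 32 gained one. The cause of these changes was not tested. Replicate numbers run within each group and name different fish: same-numbered brains of the 2 sexes had a median correlation of -0.03, with 12 of 38 over 0.1 and 2 closest to their own number, and gills -0.07, 12 of 36 and 1. With the replicate block the sex difference was 0.93 in brain and -0.15 in gills, with 1258 genes called in brain in place of 1329 and 1662 in gills in place of 2378. The alternatives on pituitary RNA, nkx2.1, the first component alone, brain and gill libraries alone, and the slope fits without the male of low Y counts were chosen after seeing the data. The low counts limit the gill and liver values.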
